A study of Mus musculus with 19 samples.

Results

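Effector regulatory T cells (Tregs) are known by a set of transcription factors, and 9 of these genes, PRDM1, IRF4, BATF, MAF, RORA, GATA3, TBX21, BHLHE40 and ARNT2, were followed here in lymph node Tregs after burn injury. The genes were chosen by name, and all 9 had a row among the 24982 genes of the count table. All 9 also passed the filter on low counts, with 11464 genes tested in all. Tregs were sorted as CD4+FoxP3-GFP+ cells from the axillary, brachial and inguinal lymph nodes that drain the injury site, and were split by surface CD44 into CD44high and CD44low cells. The mice were Foxp3DTR animals, in which the Foxp3 locus also drives GFP and a diphtheria toxin receptor, so that injured mice and controls alike carried the modified locus. Injured mice had hot water applied to part of the back and were studied 7 days later. Uninjured (sham) mice were treated with water at room temperature. The study's methods give an adult age range for all mice, and the labels used here gave neither the age of the mice in each group nor whether a sample was 1 mouse or several. The p-values below therefore measure the spread between samples, whose source in separate animals is not stated. RNA from 50000 cells was amplified for each sample, and 19 libraries were compared: 4 of CD44high and 5 of CD44low Tregs from uninjured mice, and 4 of CD44high and 6 of CD44low Tregs from injured mice. Total counts ran from 5582234 to 9433610 per library.

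Effector Tregs are Tregs that have met antigen, left the resting state and taken on stronger suppressive and tissue-homing programs. BATF pairs with JUN proteins and with IRF4 downstream of the T cell receptor, and both are needed for this differentiation, while PRDM1 encodes Blimp-1, a repressor and activator that IRF4 helps to induce and that marks the mature effector state. TBX21 (T-bet), GATA3, MAF (c-Maf) and RORA (ROR alpha) are better known from helper T cells and direct specialised Treg programs. BHLHE40 is an activation-induced repressor, and ARNT2 is a bHLH-PAS partner protein related to ARNT.

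Promoter sequences were available in RefSeq (GRCm38.p6) for 7 of the 9 genes, all but MAF and BHLHE40. The window ran from 250 bases before to 50 bases after the gene start. It was searched on both strands for motifs of the factors themselves. The 4 promoters shown hold such a match and belong to genes on which the comparisons below turn. Each is the stretch of 250 bases before the gene start, and capitals mark a match to the AP-1 letters TGANTCA, the GATA letters AGATAA or the Blimp-1 letters GNGAAAG, or their reverse complement.
PRDM1 promoter, chr10:44458749-44458998 (minus strand): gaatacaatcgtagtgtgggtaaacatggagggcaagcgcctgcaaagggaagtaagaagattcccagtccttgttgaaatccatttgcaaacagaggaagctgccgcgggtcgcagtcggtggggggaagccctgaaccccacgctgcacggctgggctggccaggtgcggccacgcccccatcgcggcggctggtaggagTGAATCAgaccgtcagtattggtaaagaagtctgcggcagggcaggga
BATF promoter, chr12:85686470-85686719 (plus strand): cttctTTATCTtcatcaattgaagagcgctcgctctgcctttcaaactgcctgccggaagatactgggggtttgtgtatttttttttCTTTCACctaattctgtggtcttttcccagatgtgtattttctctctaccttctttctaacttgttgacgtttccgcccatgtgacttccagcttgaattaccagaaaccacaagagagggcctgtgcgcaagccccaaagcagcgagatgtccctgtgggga
TBX21 promoter, chr11:97115332-97115581 (minus strand): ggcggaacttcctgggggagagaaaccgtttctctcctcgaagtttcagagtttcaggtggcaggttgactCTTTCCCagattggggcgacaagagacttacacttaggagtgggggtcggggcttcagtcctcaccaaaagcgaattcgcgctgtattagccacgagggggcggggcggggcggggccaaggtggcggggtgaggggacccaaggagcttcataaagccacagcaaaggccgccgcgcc
ARNT2 promoter, chr7:84410039-84410288 (minus strand): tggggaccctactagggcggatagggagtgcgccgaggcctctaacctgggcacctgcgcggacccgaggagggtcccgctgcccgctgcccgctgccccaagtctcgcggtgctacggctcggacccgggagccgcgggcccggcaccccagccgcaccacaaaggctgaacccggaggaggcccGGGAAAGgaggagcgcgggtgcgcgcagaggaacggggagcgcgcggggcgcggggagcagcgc

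The PRDM1 promoter held AP-1 letters 48 bases before the gene start, and no other of the 7 did. In all, 7.81% of 32817 promoter windows held them. The Blimp-1 letters were in 4 of the 7 promoters, those of ARNT2, BATF, IRF4 and TBX21, against 22.6% of all windows. They began 64 bases before the start in ARNT2, 163 in BATF, 14 in IRF4 and 179 in TBX21, and TBX21 held a further match 22 bases after its start. BATF alone of the 7 held the GATA letters, 245 bases before its start, against 11.2% of all windows. None of the 7 windows held the T-box letters AGGTGTGA, the IRF letters GAAANNGAA, the ROR letters TAGGTCA, the Maf letters TGCTGAC or the E-box CACGTG. The ARNT-type core ACGTG was found in RORA, 187 bases before its start, against 19.6% of all windows. Among the 11583 windows of tested genes, the shares were 4.75% for AP-1, 22.6% for Blimp-1, 6.54% for GATA and 25.7% for ACGTG. These matches describe the letters of the windows and show no binding.

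The sorted cells carried the RNAs of their gates. CD44 itself, the gene behind the gate, averaged 595 CPM (counts scaled to a common library total) in CD44high and 133 CPM in CD44low Tregs of uninjured mice, and 436 and 117 CPM in those of injured mice. FOXP3 averaged 87.8 ± 11.0 CPM (SD, n = 4) in CD44high and 115 ± 17.3 CPM (n = 5) in CD44low Tregs of uninjured mice, and 70.7 ± 20.6 CPM (n = 4) and 104 ± 46.2 CPM (n = 6) in those of injured mice. Genes known as markers of other cells also had counts. The summed level of 14 macrophage, dendritic cell and neutrophil markers averaged 116 CPM in CD44high and 30.2 CPM in CD44low Tregs of uninjured mice, and 166 and 76.2 CPM in those of injured mice, with LYZ2 the most abundant. In uninjured mice 9 of the 11 markers tested were higher in CD44high Tregs, where 24.7% of all genes tested were higher, among them the dendritic cell markers XCR1 (3.43, adjusted p = 0.00014) and FLT3 (4.72, adjusted p = 0.0010). In injured mice, where 20.1% of all genes tested were higher, 3 of the 11 were, XCR1 (2.89), LYZ2 (1.13) and ITGAM (1.80). The sum of 10 B cell markers averaged 189, 139, 231 and 170 CPM in the same order, with CD79B the most abundant and none at 0 throughout. Of these 10, CD79B was higher in CD44high Tregs of uninjured mice (0.84, adjusted p = 0.00037) and CD22 in those of injured mice (1.56, adjusted p = 7.9e-05). Plasma cells also express PRDM1 and IRF4. Of 11 plasma cell markers listed, 6 had a row in the count table, and the immunoglobulin genes among them had none. Of the 6, TNFRSF17 had no count in any library and JCHAIN averaged at most 2.02 CPM in a group. XBP1, which T cells express as well, was the most abundant. Of the 4 plasma cell markers tested, 3 were higher in CD44high Tregs of uninjured mice, XBP1 (0.32), DERL3 (2.501, adjusted p = 0.00018) and SDC1 (3.58, adjusted p = 0.00037), and DERL3 (2.47) and SDC1 (2.48) were higher in those of injured mice. The sum of 10 CD8, natural killer and innate lymphoid markers averaged 117, 92.1, 112 and 101 CPM, with CD8B1 the most abundant, at 43.0 and 47.0 CPM in CD44high and CD44low Tregs of uninjured mice. Of 9 tested, 3 were higher in CD44high Tregs of uninjured mice, KLRB1C (3.63, adjusted p = 0.00013), TYROBP (2.58, adjusted p = 1.9e-05) and FCER1G (2.73, adjusted p = 0.0021). In injured mice KLRB1C (2.44) and TYROBP (1.70) were higher and PRF1 (-1.02) was lower. Over all genes tested, 20.1% were higher and 17.2% lower there. Natural killer and innate lymphoid cells can express TBX21, GATA3 and RORA. The part of these cells in the results was not tested.

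Libraries also differed in how expression followed transcript length. The slope of log2 CPM on log2 exon length, per doubling of length, averaged -0.0345 in CD44high and 0.11 in CD44low Tregs of uninjured mice, and -0.095 and -0.0022 in those of injured mice. CD44high replicate 2 of injured mice stood apart with a slope of -0.22, and CD44low replicate 1_2 of injured mice had -0.14. The labels of 3 CD44low libraries of injured mice (1_2, 4_2 and 5_2) carry a second number whose meaning is not given. The labels list them as samples of their own, and they were counted as such. No pair of the 6 libraries agreed within sampling noise, with a chi-square per gene from 5.68 between libraries 1 and 2 to 41.3 between 1_2 and 5_2, so that no library's counts were a copy of another's. Repeat libraries of the same RNA could differ as much, and whether the 6 came from separate mice is not known.

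**Figure D1:**
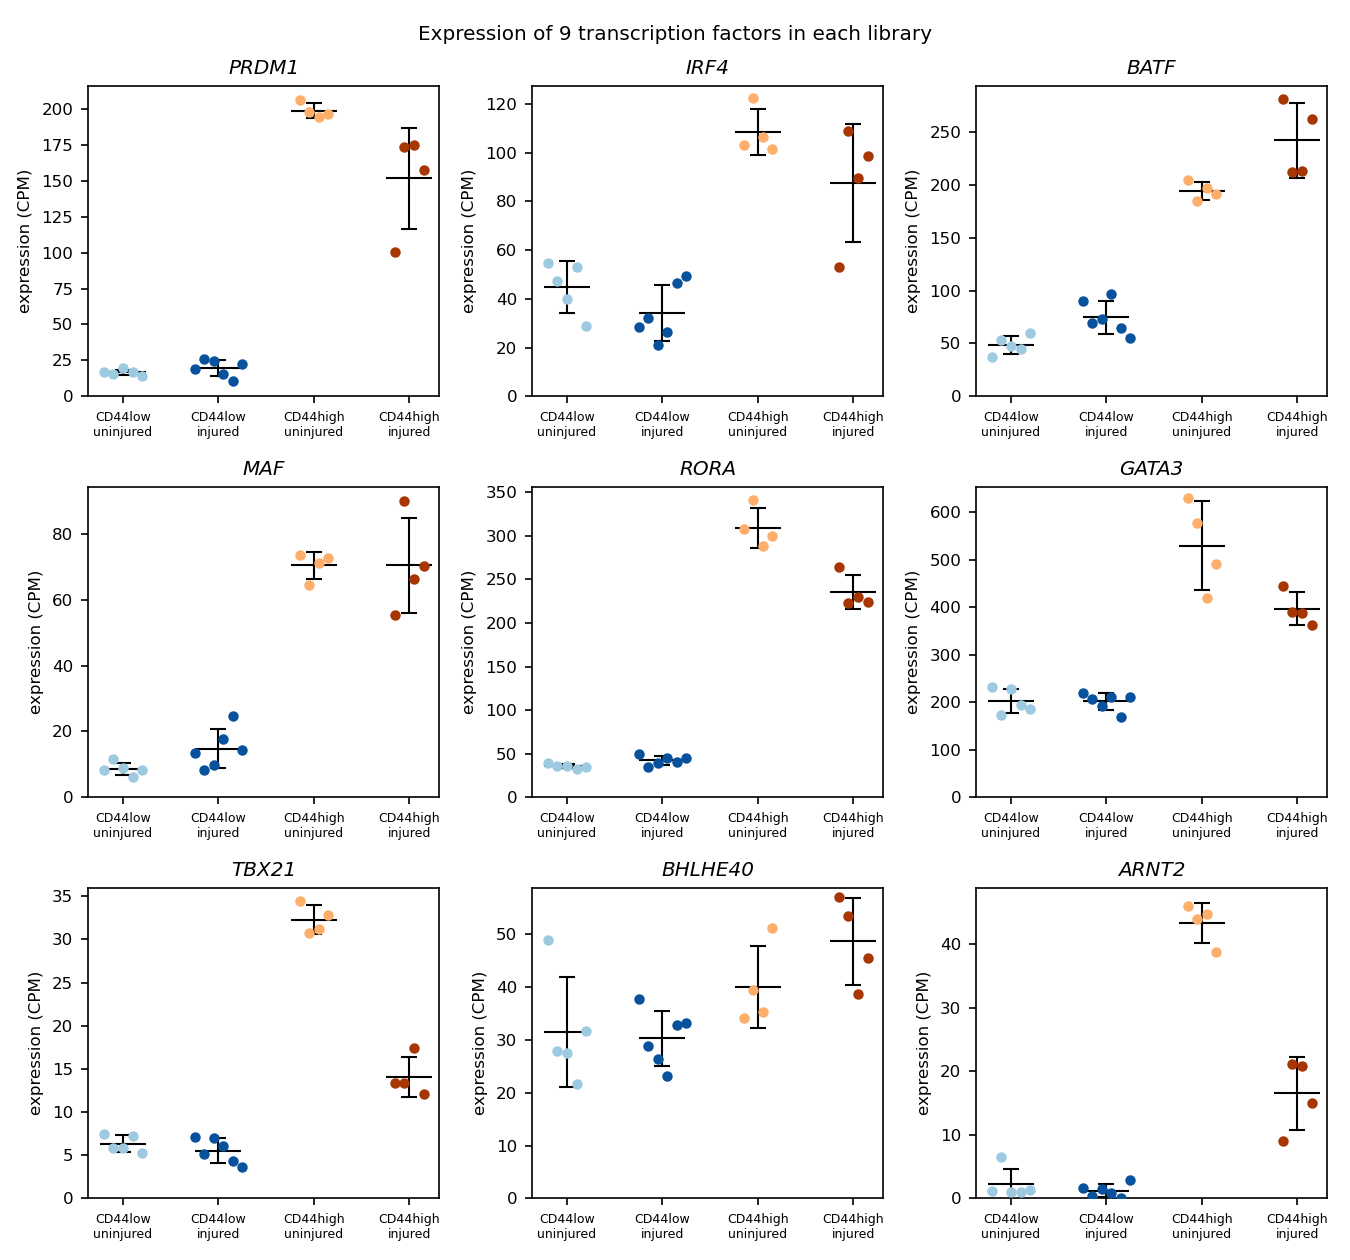
CPM of each of the 9 genes (y axis, from 0) in each of the 19 libraries (points), by subset and injury (x axis), with the group mean and SD. The CD44high points lie above the CD44low points for 8 genes in uninjured mice. TBX21, ARNT2, RORA and PRDM1 of CD44high Tregs are lower in injured mice in every library, and of these TBX21 alone passed the test.

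The first comparison asked how CD44high Tregs differ from CD44low Tregs. The published account of these samples already names 7 of the 9 genes as higher in CD44high Tregs. The shares of the 9 between subsets, in uninjured and in injured mice, are therefore descriptions and no independent support. In uninjured mice 8 of the 9 genes were higher in CD44high Tregs, where 24.7% of all genes tested were higher and 21.3% were lower. The differences ran from 2.42-fold for IRF4 to 19.9-fold for ARNT2, and BHLHE40 was the gene that did not pass the test. The median log2 difference of the 9 was 2.35, against 0.0091 over all genes tested. At a stricter limit of p under 1e-06 and 2-fold, 7 of the 9 were higher, against 6.24% of all genes, and in 8 of the 9 the ranges of the libraries did not overlap, against 21.9% of all genes. In bulk samples a larger share of cells with a gene and more RNA per cell cannot be told apart.

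PRDM1 was at 206, 198, 194 and 196 CPM in the CD44high libraries of uninjured mice, and between 14.2 and 19.6 CPM in the 5 CD44low libraries. The groups were far apart, with little spread in either. The log2 difference was 3.58 ± 0.19 (SE; edgeR, adjusted p = 4.4e-13). BATF, its upstream AP-1 family factor, was at 205, 185, 197 and 192 CPM against 37.5, 53.4, 48.0, 45.0 and 59.9 CPM, a difference of 2.00 ± 0.15 (adjusted p = 1.3e-10). IRF4, the partner of BATF, was closer between the subsets. It was at 103, 122, 107 and 102 CPM in CD44high and between 28.9 and 54.7 CPM in the 5 CD44low libraries, a difference of 1.27 ± 0.22 (adjusted p = 6.2e-05).

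The lineage-associated factors were higher as well. RORA, an orphan nuclear receptor, was at 308, 341, 288 and 299 CPM in CD44high and between 32.2 and 39.7 CPM in CD44low libraries. Its difference of 3.11 ± 0.11 had the second smallest p of all genes tested (adjusted p = 7.6e-16). MAF, which promotes IL-10 expression, was at 73.5, 64.4, 71.2 and 72.6 CPM against 6.04 to 11.5 CPM, a difference of 3.03 ± 0.24 (adjusted p = 2.5e-10). TBX21, the regulator of type 1 responses, was at 34.4, 30.7, 31.2 and 32.8 CPM against 5.23 to 7.50 CPM, a difference of 2.35 ± 0.20 (adjusted p = 1.0e-09). GATA3, the regulator of type 2 responses, was at 631, 579, 419 and 491 CPM against 174 to 233 CPM. It was abundant in both subsets, and differed by 1.38 ± 0.12 (adjusted p = 1.1e-09).

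ARNT2 had the largest fold difference of the 9 and the fewest counts in CD44low Tregs. It was at 46.0, 43.9, 44.7 and 38.7 CPM in CD44high libraries, and at 1.09, 6.46, 0.994, 1.01 and 1.351 CPM in CD44low libraries, which held 70 counts in all. CD44low replicate 2, at 41 counts, lay well above the other 4. The difference was 4.31 ± 0.48 (adjusted p = 9.4e-08) and 5.26 without that library. BHLHE40 was at 34.2, 39.5, 35.4 and 51.1 CPM in CD44high and at 48.9, 27.9, 27.5, 21.6 and 31.7 CPM in CD44low libraries. The groups overlapped through CD44low replicate 1, and the difference of 0.35 ± 0.20 did not pass the test (adjusted p = 0.15). Without that library it was 0.56 (adjusted p = 0.0145).

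In injured mice all 9 genes were higher in CD44high Tregs, where 20.1% of all genes were higher and 17.2% lower. The ranges of the groups did not overlap for any of the 9, against 15.6% of all genes higher without overlap, and 6 passed the stricter limit, against 4.52% of all genes. The median log2 difference of the 9 was 1.70. The differences were 3.77 ± 0.48 for ARNT2, 2.93 ± 0.18 for PRDM1, 2.47 ± 0.10 for RORA, 2.27 ± 0.21 for MAF, 1.70 ± 0.14 for BATF, 1.37 ± 0.21 for IRF4, 1.34 ± 0.19 for TBX21 and 0.97 ± 0.11 for GATA3, with adjusted p between 1.5e-14 for RORA and 1.9e-05 for IRF4. BHLHE40 was at 57.0, 53.5, 38.7 and 45.5 CPM in CD44high Tregs, and ran from 23.1 to 37.6 CPM with a median of 30.7 CPM in the 6 CD44low libraries. Its difference of 0.68 ± 0.19 passed the test here (adjusted p = 0.0056), and the change in its difference from uninjured to injured mice, 0.33 ± 0.27, did not (adjusted p = 0.72).

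**Figure D2:**
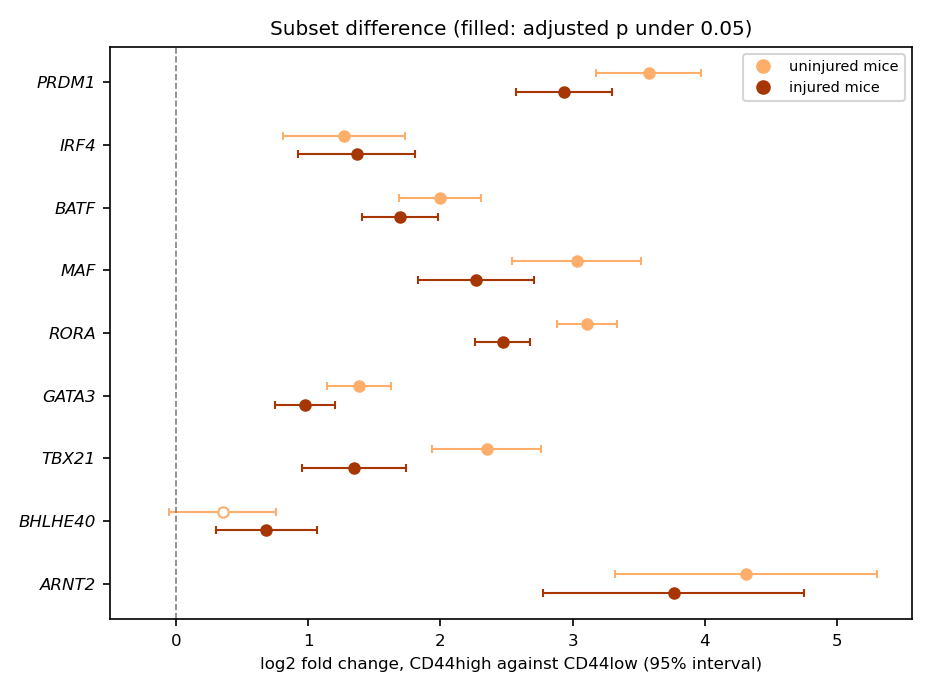
Log2 fold change of CD44high against CD44low Tregs (x axis) for each of the 9 genes (y axis) in uninjured and injured mice, with 95% intervals; filled points have an adjusted p under 0.05. ARNT2 and PRDM1 lie farthest to the right in both, and BHLHE40 in uninjured mice is the one open point.

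Levels were compared between genes as CPM per kilobase of exon. In CD44high Tregs of uninjured mice BATF (138) and GATA3 (133) led, and their order was within the spread between libraries. PRDM1 followed at 35.6, then RORA at 23.6 and IRF4 at 22.1, which were within their spread of each other. TBX21 (13.0), MAF (8.55), BHLHE40 (8.51) and ARNT2 (5.64) were the lowest. In CD44low Tregs of uninjured mice GATA3 led at 51.0, then BATF at 34.7 and IRF4 at 9.14. PRDM1, which followed GATA3 in CD44high Tregs, came after BHLHE40 (6.70) here at 2.98, and ARNT2 was lowest at 0.284. After injury BATF led in both subsets, at 172 in CD44high Tregs with GATA3 at 99.8, and at 53.2 in CD44low Tregs with GATA3 at 50.8, the last pair being within the spread between libraries. TBX21 passed below BHLHE40 and MAF in CD44high Tregs of injured mice, at 5.65 against 10.3 and 8.55.

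The second comparison asked what injury changed within each subset. In CD44high Tregs 1 of the 9 genes passed the test, TBX21, which fell, where 1.33% of all genes fell and 1.06% rose. TBX21 was at 13.4, 13.3, 17.5 and 12.1 CPM in the injured libraries, against 34.4, 30.7, 31.2 and 32.8 CPM in the uninjured ones. The groups were well separated. The log2 change was -1.20 ± 0.20 (95% interval -1.61 to -0.78; edgeR, adjusted p = 0.0012), a level 2.29-fold lower.

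The other 8 genes did not pass the test in CD44high Tregs, although for several of them the ranges of the libraries did not overlap. ARNT2 was at 9.03, 21.2, 20.9 and 15.1 CPM after injury against 38.7 to 46.0 CPM without it, and its change of -1.38 ± 0.43 had an adjusted p of 0.093. RORA was at 264, 223, 229 and 224 CPM against 288 to 341 CPM, with a change of -0.39 ± 0.11 (adjusted p = 0.054). PRDM1 was at 100.5, 173, 175 and 158 CPM against 194 to 206 CPM, with a change of -0.39 ± 0.18 (adjusted p = 0.32). The injured libraries were below every uninjured one for these 3 genes and for TBX21, 4 of the 9 in all, against 7.34% of all genes. BATF lay the other way, at 281, 212, 213 and 262 CPM against 185 to 205 CPM, with a change of 0.32 ± 0.15 (adjusted p = 0.33), where 5.91% of all genes were higher without overlap.

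GATA3 overlapped between the groups, at 445, 391, 389 and 363 CPM against 419 to 631 CPM, and its change of -0.42 ± 0.12 had an adjusted p of 0.075. MAF averaged 70.4 CPM in each group, with SDs of 4.11 CPM without injury and 14.5 CPM after it, and the 95% interval of its change ran from -0.46 to 0.46. Some of these genes passed under other settings. RORA passed in 6 of 29 alternatives (adjusted p = 0.011 with DESeq2) and GATA3 in 3 (0.0295 without CD44high uninjured 4). ARNT2 passed in 3, with an adjusted p of 0.0295 without CD44low uninjured 2 and of 0.002 at the lowest of the 29. IRF4 changed by -0.31 ± 0.23 (adjusted p = 0.58) and BHLHE40 by 0.28 ± 0.20 (adjusted p = 0.58). The median change of the 9 was -0.39, against -0.021 over all genes tested. CD44high replicate 2 of injured mice, the library with the steepest length slope, was the lowest of its group for PRDM1, IRF4, MAF and ARNT2 and the highest for BATF, RORA, GATA3 and BHLHE40. Without it the change was -0.22 for PRDM1 and -0.12 for IRF4. Without any 1 of the 19 libraries the change of TBX21 stayed between -1.32 and -1.13, with an adjusted p of at most 0.0105.

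In CD44low Tregs 2 of the 9 genes rose after injury, BATF and MAF, where 4.24% of all genes rose and 3.36% fell. BATF was at 37.5, 53.4, 48.0, 45.0 and 59.9 CPM without injury, and ran from 55.2 to 96.4 CPM with a median of 71.0 CPM after it. A single injured library, 5_2, lay inside the uninjured range. The change was 0.62 ± 0.14 (95% interval 0.33 to 0.90; adjusted p = 0.0091), or 1.53-fold. Library 5_2, with a length slope of 0.13, was also the only injured CD44low library within the uninjured range of slopes, 0.071 to 0.16. Within groups BATF followed the slope with r = -0.84, and with r = -0.52 once the length trend was taken out. The rise of BATF and the shift in slope were thus not fully separated. MAF was at 8.44, 11.5, 8.80, 6.04 and 8.27 CPM without injury. After it, MAF ran from 8.35 to 24.8 CPM with a median of 13.9 CPM. The groups overlapped, and the change of 0.76 ± 0.22 (95% interval 0.30 to 1.22) was close to the threshold (adjusted p = 0.041). The call of MAF was lost on leaving out any 1 of 9 libraries, namely CD44low uninjured 1, 3, 4 or 5, CD44low injured 1, 1_2 or 4_2, CD44high uninjured 4 or CD44high injured 5, with an adjusted p of up to 0.0856. Without libraries 1_2, 4_2 and 5_2 the change was 0.29 (adjusted p = 0.36), and without libraries 1, 2 and 5 it was 1.15 (adjusted p = 0.0044).

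None of the other 7 genes passed the test in CD44low Tregs, and none of the 9 had ranges without overlap, where 2.39% of all genes were higher and 2.29% lower without overlap. RORA changed by 0.24 ± 0.10 (adjusted p = 0.12), PRDM1 by 0.25 ± 0.18 (0.39), IRF4 by -0.40 ± 0.21 (0.22) and TBX21 by -0.19 ± 0.19 (0.56). The change of IRF4 was -0.72 without libraries 1_2, 4_2 and 5_2, which passed the test (adjusted p = 0.030), and -0.11 without libraries 1, 2 and 5 (adjusted p = 0.83). GATA3 had a change of -0.0067 and a 95% interval from -0.23 to 0.21. BHLHE40 changed by -0.056 ± 0.18 (adjusted p = 0.88). ARNT2 had few counts in this subset, with 70 counts without injury and 48 counts after it over all libraries, and its change of -0.83 ± 0.56 had a 95% interval from -1.99 to 0.32. Without CD44low replicate 2 of uninjured mice the change turned to 0.15. The median change of the 9 was -0.0067, against 0.0077 over all genes.

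**Figure D3:**
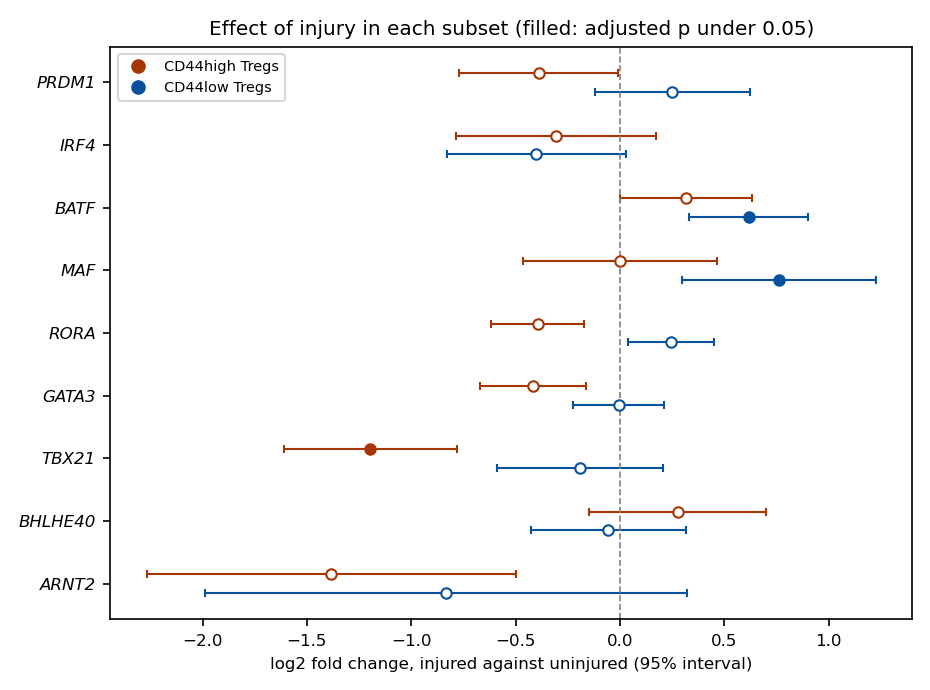
Log2 fold change of injured against uninjured mice (x axis) for each of the 9 genes (y axis) in CD44high and CD44low Tregs, with 95% intervals; filled points have an adjusted p under 0.05. TBX21 is the one filled point in CD44high Tregs, at -1.20, and BATF (0.62) and MAF (0.76) are the filled points in CD44low Tregs.

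Whether injury acted differently in the subsets was tested as the difference of the 2 changes. RORA passed, with a difference of -0.64 ± 0.15 (95% interval -0.94 to -0.33; adjusted p = 0.043), where 0.454% of all genes had a difference below 0 that passed and 0.192% one above. Its level was lower after injury in every CD44high library, while in CD44low Tregs it was at 39.7, 36.2, 35.6, 32.2 and 35.1 CPM without injury and ran from 34.3 to 49.7 CPM with a median of 42.5 CPM after it. The call was lost on leaving out any 1 of 14 of the 19 libraries, with an adjusted p of up to 0.11, and held without CD44low uninjured 1, CD44high injured 2, or CD44low injured 2, 5 or 1_2. It was lost as well with the replicate block (adjusted p = 0.078) and without the filter on low counts (adjusted p = 0.054). The difference for TBX21 was larger but less precise, at -1.01 ± 0.28 (adjusted p = 0.10). The differences for MAF (-0.76 ± 0.32), PRDM1 (-0.64 ± 0.26), GATA3 (-0.41 ± 0.16), ARNT2 (-0.55 ± 0.72), BATF (-0.30 ± 0.20), BHLHE40 (0.33 ± 0.27) and IRF4 (0.093 ± 0.31) did not pass. Without libraries 1_2, 4_2 and 5_2 the differences of PRDM1 (-0.86, adjusted p = 0.033) and TBX21 (-1.21, adjusted p = 0.016) passed, and without libraries 1, 2 and 5 that of MAF did (-1.14, adjusted p = 0.044).

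Genes known to depend on these factors were followed as lists, some of whose genes stand in more than 1 list. The lists were chosen with earlier results of these data known. The published account names several of their genes as higher in CD44high Tregs, among them ICOS, CTLA4, KLRG1, FGL2, CD83, CXCR3 and CCL5. The shares of the lists are therefore descriptions and no independent support. Of 15 genes that depend on Blimp-1, IRF4 or BATF in Tregs, all 15 were higher in CD44high Tregs of uninjured mice, against 24.7% of all genes, with a median log2 difference of 3.54, and 14 in injured mice, against 20.1%, with a median of 2.84. After injury 5 of the 15 rose in CD44low Tregs and none fell, where 4.24% of all genes rose. These were ICOS, a costimulatory receptor (0.86, adjusted p = 0.00034), CTLA4, an inhibitory receptor (0.73, adjusted p = 0.00063), CD83 (0.79, adjusted p = 0.0010), EBI3, a subunit of IL-27 and IL-35 (1.04, adjusted p = 0.0014), and KLRG1, a marker of mature effector cells that natural killer cells carry too (1.68, adjusted p = 0.0053). Markers of other cells rose in the same comparison, 3 of 11 myeloid ones, ITGAM (adjusted p = 0.0087), S100A9 (adjusted p = 0.024) and LYZ2 (1.27, adjusted p = 0.030), and 2 of 9 CD8, natural killer and innate lymphoid ones, KLRB1C (from 0.294 to 2.32 CPM, adjusted p = 0.0087) and TYROBP (1.34, adjusted p = 0.042). Their part in the rise of these 5 genes was not tested. In CD44high Tregs CD83 rose (0.70, adjusted p = 0.0080) and FGL2, a secreted suppressor, fell (-1.395, adjusted p = 0.00014).

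Of 9 genes tested that are known to depend on T-bet, 7 were higher in CD44high Tregs of uninjured mice and 6 in those of injured mice, against 24.7% and 20.1% of all genes. In CD44high Tregs 2 of the 9 fell after injury and none rose, where 1.33% of all genes fell. CXCR3, a chemokine receptor, averaged 253 CPM without injury and 135 CPM after it, a change of -0.90 ± 0.17 (adjusted p = 0.0031). CCL5, a chemokine, averaged 32.2 and 13.5 CPM, a change of -1.25 ± 0.25 (adjusted p = 0.0062). Both changes differed between the subsets, by -1.13 for CXCR3 (adjusted p = 0.014) and -1.62 for CCL5 (adjusted p = 0.027). KLRG1, also of this list, averaged 322 CPM in CD44high Tregs without injury and 371 CPM after it (adjusted p = 0.74), and rose in CD44low Tregs as given above. CCL5 is also made by CD8 T cells and natural killer cells. Of 9 markers of such cells tested, PRF1 fell in CD44high Tregs (-1.003, adjusted p = 0.011), a change that also differed between the subsets (-1.42, adjusted p = 0.016), and none rose, with KLRB1C at 3.71 CPM without injury and 12.8 CPM after it (adjusted p = 0.063) and CD8B1 at 43.0 and 41.9 CPM. Of 11 myeloid markers S100A9 rose in the same comparison, from 0.0417 to 3.96 CPM (adjusted p = 0.0496), where 1.06% of all genes rose. Its level without injury rested on 1 count. Without passing the test, S100A8 was higher after injury (5.97, adjusted p = 0.10), and FLT3 (-1.785, adjusted p = 0.32) and ITGAX (-1.66, adjusted p = 0.31) were lower. The part of such cells was not tested.

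Of 9 genes tested that Blimp-1 is known to repress, 6 were lower in CD44high Tregs of uninjured mice and 3 in those of injured mice, against 21.3% and 17.2% of all genes, and none was higher. After injury 4 of the 9 rose in CD44high Tregs and none fell, where 1.06% of all genes rose. These were CXCR5, the follicular homing receptor (1.496, adjusted p = 0.00040), TCF7, a factor of resting T cells (0.60, adjusted p = 0.00033), MYC (0.45, adjusted p = 0.022) and ID3 (0.70, adjusted p = 0.039). B cells express CXCR5 and other genes of this list, and of 10 B cell markers CD22 rose in the same comparison, from 19.6 to 64.4 CPM (adjusted p = 0.0027). The part of B cells was not tested. None of the 9 passed in CD44low Tregs, and the change of TCF7 differed between the subsets (0.70, adjusted p = 0.0032). Of 12 factors of resting T cells, 11 were lower and 1 higher in CD44high Tregs of uninjured mice, and 8 were lower and 1 higher in those of injured mice. Over all genes 21.3% were lower and 24.7% higher in uninjured mice, and 17.2% and 20.1% in injured mice. After injury 3 of the 12 rose in CD44high Tregs, SATB1, TCF7 and ID3, where 1.06% of all genes rose. SATB1, a chromatin organiser, averaged 47.2 CPM in CD44high Tregs without injury and 139.5 CPM after it, a rise of 1.56 (adjusted p = 2.3e-07). This differed from its change in CD44low Tregs by 1.71 (adjusted p = 4.7e-06). In CD44low Tregs 3 of the 12 fell, FOXO1 (-0.47), ZEB1 (-0.56) and FOXP1 (-0.32), where 3.36% of all genes fell.

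**Figure D4:**
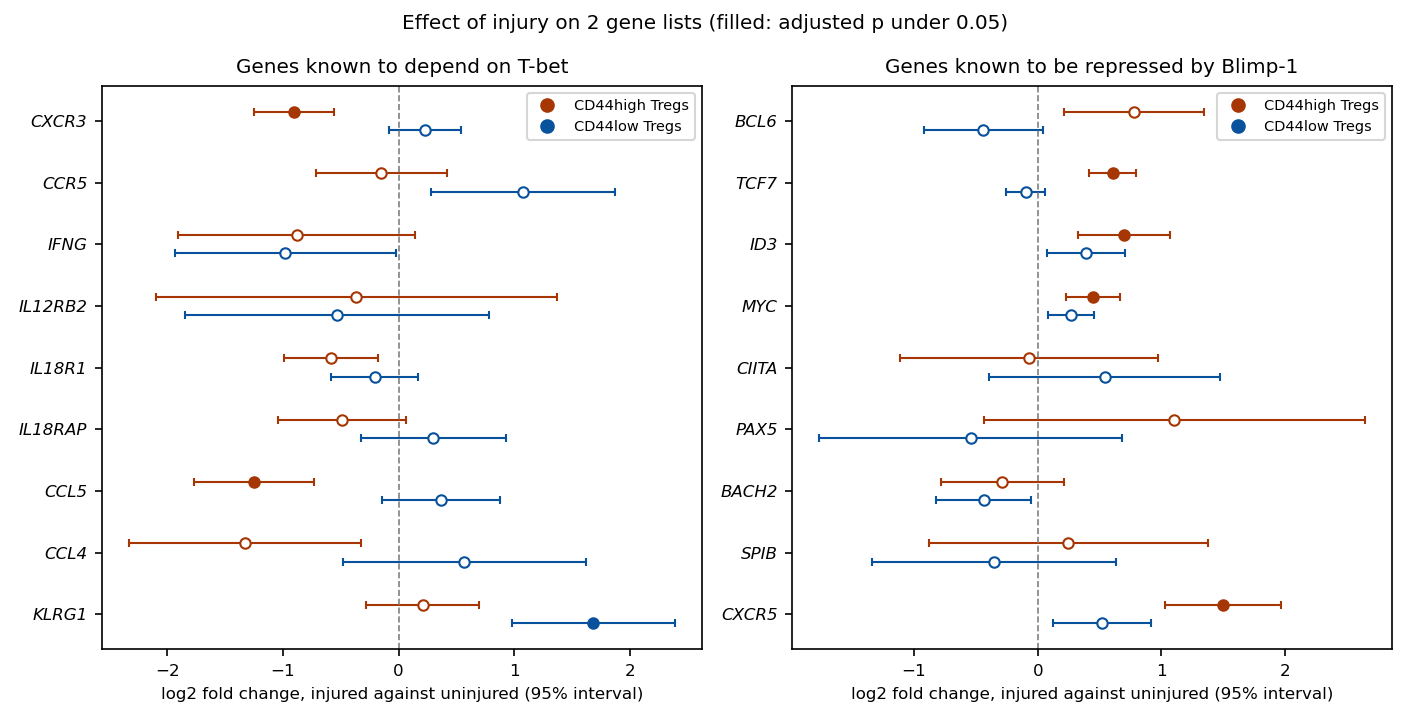
Log2 fold change of injured against uninjured mice (x axis) for genes known to depend on T-bet and genes known to be repressed by Blimp-1 (y axes), in CD44high and CD44low Tregs, with 95% intervals; filled points have an adjusted p under 0.05. In CD44high Tregs CXCR3 and CCL5 are the filled points below 0, and TCF7, ID3, MYC and CXCR5 are the filled points above 0.

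The remaining lists concern GATA3, c-Maf and ROR proteins, relatives of the 9 factors and Treg identity. Over all genes 1.06% rose and 1.33% fell after injury in CD44high Tregs, and 4.24% rose and 3.36% fell in CD44low Tregs. Of 7 genes that depend on GATA3, 2 fell in CD44high Tregs after injury, IL17RB, a receptor for IL-25 (-1.09, adjusted p = 0.027), and AREG, a tissue repair factor (-1.16, adjusted p = 0.035), and CCR4, a skin homing receptor, rose in CD44low Tregs (0.69, adjusted p = 0.0165). Of 8 genes that depend on c-Maf or ROR proteins, NR1D1, a clock repressor, fell in CD44high Tregs (-1.38, adjusted p = 0.0020) and ICOS rose in CD44low Tregs. Among 26 relatives of the 9 factors, 7 were higher and 8 lower in CD44high Tregs of uninjured mice, against 24.7% and 21.3% of all genes. Of these relatives FOS averaged 364 ± 139 CPM in CD44high Tregs without injury and 34.9 ± 9.3 CPM after it (SD, n = 4 each), a change of -3.38 (adjusted p = 0.0046), and JUN fell in both subsets, by 1.33 in CD44high (adjusted p = 0.015) and 1.28 in CD44low Tregs (adjusted p = 0.0036). FOS and JUN encode partners of the AP-1 family to which BATF belongs. JUNB (-0.92), PRDM2 (-0.67) and ARNT (-0.50) fell in CD44low Tregs as well, and ARNTL rose (0.49). Of 12 factors of Treg identity, none passed in CD44high Tregs and REL fell in CD44low Tregs (-0.90, adjusted p = 0.0037).

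The 9 genes varied unequally between libraries of 1 group. The biological coefficient of variation was 11.3% for RORA and 12.9% for GATA3, and 47.7% for ARNT2. Once group means were taken out, the 36 pairs of genes had Pearson r between -0.73 for IRF4 with BATF and 0.49, with a median of 0.041 over the 19 libraries, which share depth and length trends. BATF followed the length slope most closely, with r = -0.84, against 0.59 for IRF4, 0.58 for PRDM1 and -0.205 for RORA. BATF has 1406 bases of exon, the fewest of the 9, and RORA has 13071. With the length trend taken out of each library, BATF rose in CD44low Tregs (0.45, adjusted p = 0.013), MAF rose (0.90, adjusted p = 0.018) and TBX21 fell in CD44high Tregs (-1.23, adjusted p = 0.00062), while RORA passed in CD44low Tregs (0.48, adjusted p = 0.031) and its difference between the subsets did not (-0.77, adjusted p = 0.056). Afterwards r with the slope was -0.52 for BATF, and for RORA it went from -0.205 to -0.77, so that the corrected values of RORA followed the slope more closely than the uncorrected ones.

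**Figure D5:**
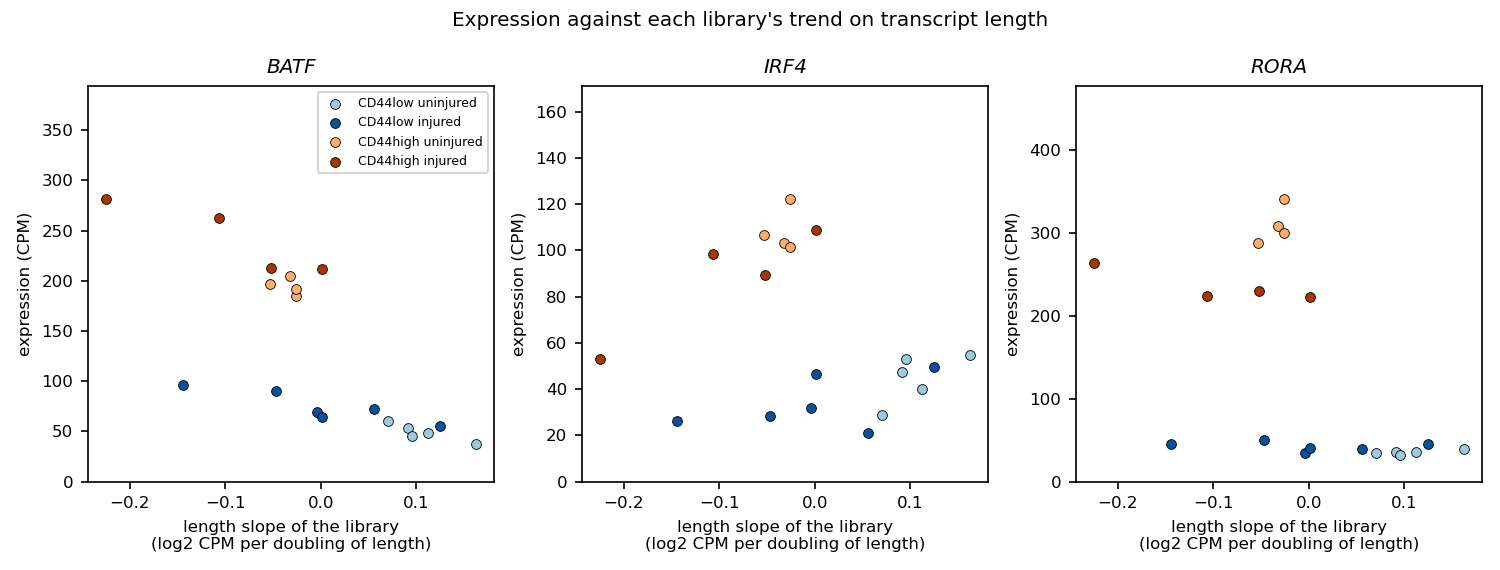
CPM of BATF, IRF4 and RORA (y axes) against the slope of log2 CPM per doubling of exon length (x axis) in each of the 19 libraries, coloured by group. Within groups BATF is higher where the slope is lower, and CD44high replicate 2 of injured mice lies at the far left with a slope of -0.22.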

How the data were processed

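RNA of sorted Tregs was made into cDNA with SMART-Seq v4 and into libraries with the Swift 2S kit. The deposited values are raw read counts per gene, which the authors made with STAR through the VIPER pipeline. The submitters' processing notes name STAR 2.5, bcl2fastq 2.18 and the builds mm9 and mm10, so that the build of the counts is unclear, and no coordinates are given for the counted genes. Promoter coordinates are those of RefSeq's GRCm38.p6. Groups came from sample titles. Counts were filtered (filterByExpr, minimum count 10), scaled by TMM and fitted with edgeR 4.0.16 in R 4.3.3 by the quasi-likelihood test with 1 mean per group over all 19 libraries. p-values were adjusted by Benjamini-Hochberg over 11464 genes and called under 0.05, and fold changes are log2. The SE is the log2 change divided by the square root of F. Log2 CPM used a prior count of 2. Exon lengths (GENCODE vM21) matched 99.02% of tested genes. Total counts of 5582234 to 9433610 per library set the counting precision.

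Named genes were the 9 factors, the 4 genes of smallest p in each list and comparison, and the 2 genes most like each factor. PRF1, ARNT and the markers of other cells were named after their values were seen. The genes and lists were chosen with earlier results of these data known. The published account of these samples names 7 of the 9 as higher in CD44high Tregs. Alternatives were DESeq2 1.42.0, other scalings and filters, library subsets, a replicate block and leaving out each library. The fit was also run on simulated data, the outcome of which is not given here and supports no result above.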

Additional observations from a re-analysis of the deposited data

Results flagged for a closer look

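RORA in CD44high replicate 2 of injured mice was at 264 CPM, far from the other 3 libraries of its group, which were at 223 to 229 CPM. ARNT2 in CD44low replicate 2 of uninjured mice was at 6.46 CPM, far from the other 4, which were at 0.994 to 1.351 CPM. These were 2 of 36 groups of libraries tested for an extreme value, and chance alone marks about 1 in 20. The effect of injury on RORA differed between the subsets by -0.64 on the log2 scale in edgeR's test of the difference (adjusted p = 0.043).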

How the results depend on the processing

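TBX21 fell in CD44high Tregs and BATF rose in CD44low Tregs in 29 of 29 alternatives each, with adjusted p of at most 0.0105 and 0.0475. No alternative fully separated the rise of BATF from the length slope, with which its r stayed at -0.52 after correction. MAF in CD44low Tregs passed in 17 of 29, and the difference of RORA between subsets in 11 of 28. Genes called in all were 5280 and 4283 between subsets in uninjured and injured mice, 273 and 871 for injury in CD44high and CD44low Tregs, and 74 for the difference. At p under 1e-06 and 2-fold these were 951, 688, 17, 14 and 10, and 0 of the 9 factors passed for injury in CD44high Tregs, 0 in CD44low Tregs and 0 for the difference. With DESeq2 injury gave 479 genes and 3 factors in CD44high, 1460 genes in CD44low Tregs, and 212 genes and 2 factors for the difference. With only the groups compared in the fit it gave 601 genes and 3 factors in CD44high and 463 genes and 1 factor in CD44low Tregs; ARNT2 could not be fitted there, and the difference has no such fit. Without libraries 1_2, 4_2 and 5_2 it gave 581 genes and 4 factors, 1748 genes, and 314 genes and 3 factors for the difference. Without CD44low injured libraries 1, 2 and 5 it gave 2 factors in CD44high, 445 genes in CD44low Tregs, and 136 genes and 2 factors for the difference. With libraries 1 and 1_2, and 5 and 5_2, summed it gave 476 genes and 2 factors in CD44high Tregs. Without the filter, and with the length trend taken out, 0 factors passed for the difference. Libraries of different groups with the same first number, 5_2 being taken as 5, correlated between -0.35 and 0.35. The labels do not say that a number marks a shared mouse or day, so that the libraries were not treated as pairs. The replicate block used the same first numbers. With the replicate block, 440 genes and 1 factor passed in CD44low Tregs, where MAF had an adjusted p of 0.086, and 0 factors for the difference.

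Leaving out 1 library gave 8 to 9 factors and 4743 to 5470 genes between subsets in uninjured mice, 9 factors and 3597 to 4410 genes in injured mice, 1 to 2 factors and 152 to 343 genes for injury in CD44high, 1 to 2 factors and 510 to 1893 genes in CD44low Tregs, and 0 to 1 factors and 43 to 110 genes for the difference. Changes of sign were found for 7 results, none of them past the threshold, and their cause was not tested. MAF in CD44high Tregs was at -0.0021 with DESeq2, -0.0025 with DESeq2's size factors, -0.016 with the replicate block and -0.012 with thinned counts, and from -0.14 to 0.11 without 1 library. GATA3 in CD44low Tregs was at 0.0094 with DESeq2, 0.0094 with its size factors, 0.023 without the filter, 0.027 without libraries 1_2, 4_2 and 5_2 and 0.026 with thinned counts, and from -0.035 to 0.071 without 1 library. Without those 3 libraries TBX21 in CD44low Tregs was at 0.016. Without libraries 1, 2 and 5 PRDM1 in CD44low Tregs was at -0.0042 and the difference for IRF4 at -0.19, which ran from -0.029 to 0.26 without 1 library. In CD44low Tregs BHLHE40 ran from -0.14 to 0.18 and ARNT2, at -0.83 with all libraries, from -1.27 to 0.15 without 1 library. ARNT2 in CD44low Tregs rested on 70 and 48 counts, 41 of them in CD44low uninjured replicate 2.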

Other observations

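With group means taken out, the genes most like each factor over the 19 libraries (Pearson r of log2 CPM) were TOP3A (0.87) and CCDC82 (0.82) for PRDM1, UBR4 (0.92) and CRIM1 (0.89) for IRF4, SEC13 (0.92) and CDC42EP3 (0.92) for BATF, and S100A4 (0.80) and CSK (0.80) for MAF. For RORA they were 9130401M01RIK (0.72) and NAT6 (0.72), for GATA3 PRNP (0.82) and TOX (0.79), for TBX21 UTP4 (0.86) and LMNA (0.81), for BHLHE40 GRN (0.79) and CCR8 (0.77), and for ARNT2 FCHO2 (0.78) and NCAPD2 (0.76). The libraries share depth and length trends, and these values are descriptions.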
